A study of Mus musculus with 18 samples.

Results

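The effect of losing FoxA1 on footpad skin was described at postnatal day 10 (P10), from 3 arrays of FoxA1 knockout skin and 3 arrays of wild-type skin, 6 of the 18 arrays of the study. All animals were of the C57BL/6 strain, and the wild-type mice were littermates of the knockouts. The labels give the sex as mixed, not per animal, and name no allele, promoter or Cre line for the knockout, so whether FoxA1 was removed in the whole mouse or in some cells of the skin is not given in the sources used here. The other 12 arrays hold both genotypes at P14 and P31, 3 arrays each, and entered the model to estimate the spread of each probe. Skin RNA was read in Cy3 and, on the same array, a reference mix of RNA from mouse cell lines and embryonic stem cells in Cy5.

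FoxA1 is a forkhead transcription factor that can bind its sites in closed chromatin, and it is best known from endoderm, liver, prostate and breast, where it acts with other factors on genes of gland epithelia. The hairless footpad is the main site of eccrine sweat glands in the mouse. Each of these glands has a coiled secretory part with luminal and myoepithelial cells, and a duct to the surface. The title of the study names Best2, a bestrophin anion channel, and Nkcc1, a sodium, potassium and chloride cotransporter, as ion transporters of sweat secretion.

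The array held 42006 probes of 60 bases, and the deposited files name the gene of 0 of them. Probes are therefore given by identifier and sequence. Foxa1 itself, Best2, Nkcc1, skin and sweat gland markers and markers of other tissues were not analysed here, so the labels were not checked against the targeted gene and the labelled tissue was not checked against its markers. Probes were tested if the scanner software marked them well above background in the skin channel on 3 or more of the 6 P10 arrays, which left 24921 probes, 22276 of them well above background on all 6 arrays. The share of all probes well above background was 59.1% to 62.7% on the knockout arrays and 55.4% to 59.6% on the wild-type arrays, the median spot brightness in Cy3 was 146 to 188, and no spot was saturated in that channel. Values below are log2 ratios of skin over reference, errors after ± are the SD of 3 arrays, and passing means a fold over 1.5 with an adjusted p (limma, Benjamini-Hochberg) below 0.05.

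Few probes passed at P10, and most of them were lower in the knockout. Of the 24921 probes 8 passed (0.0321%), 6 lower in the knockout (0.0241%) and 2 higher (0.00803%). The count depended on how arrays were weighted: with array quality weights 278 passed, 147 lower and 131 higher. The sequences of the 8 are printed because the finding rests on these probes and the probe sequence is the one handle by which each transcript can be found in a genome. All are 5′ to 3′ as deposited, in lower case. The capitals in Z00026330-1 mark bases 25 to 60, which repeat with a period of 15 bases. The 6 lower probes were the following.
Z00047679-1: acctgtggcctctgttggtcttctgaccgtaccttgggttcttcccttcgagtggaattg
Z00025973-1: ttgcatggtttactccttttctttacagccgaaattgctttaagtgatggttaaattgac
Z00026330-1: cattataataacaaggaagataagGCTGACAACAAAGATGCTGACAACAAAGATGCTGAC
Z00046430-1: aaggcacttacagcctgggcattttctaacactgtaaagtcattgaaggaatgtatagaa
Z00054396-1: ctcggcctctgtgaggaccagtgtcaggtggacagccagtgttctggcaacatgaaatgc
Z00051811-1: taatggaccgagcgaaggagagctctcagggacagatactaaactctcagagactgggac
The 2 higher probes were the following.
Z00026567-1: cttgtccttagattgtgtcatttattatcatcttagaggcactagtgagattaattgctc
Z00028477-1: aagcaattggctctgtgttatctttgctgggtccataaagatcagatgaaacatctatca

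None of the 8 shares a run of 20 bases, on either strand, with another probe of the array. Probes at different places of the same transcript would share no such run. Whether each of the 8 stands for a transcript of its own was therefore not tested. At least 2 copies of a unit of 9 to 30 bases, as in Z00026330-1, were found in 53 of the tested probes (0.213%). At least 1 of the 3 forward frames has no stop codon in 7 of the 8 probes, and in 82.4% of all tested probes. The probe without such a frame is Z00025973-1. The median GC content was 38.3% for the 8 and 45.0% for all tested probes. RefSeq promoter windows of GRCm38.p6, from 250 bases before to 50 bases after each annotated start, hold 267 probes of the array whole, on either strand, and 0 of the 8, so no position is given for them.

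Z00047679-1 had the largest loss among the probes well above background in both genotypes. Its log2 ratio was -0.13, 0.17 and 0.12 on knockout arrays 1 to 3 and 3.54, 3.61 and 3.64 on wild-type arrays 1 to 3. The groups were thus far apart, and each was tight. The change was -3.54 (SE 0.267, 95% confidence interval -4.11 to -2.98, adjusted p = 4.07e-06), or 11.7-fold. In the skin channel alone the spot had a brightness of 210, 234 and 298 in the knockout and 3530, 3150 and 5060 in the wild type, before any correction. The transcript was still well above background on all 3 knockout arrays. The reference channel, which holds the same RNA on every array, read 206 to 269 on the knockout arrays and 421 to 542 on the wild-type arrays at this spot. After normalization the skin channel differed by -4.25 and the reference channel by -0.71 on the log2 scale, so the ratio gives a smaller change than the skin channel does. With the other corrections, filters and designs tried, the change of the ratio or of Cy3 alone ran from -4.82 to -3.45.

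For 2 probes the knockout was not well above background on any array, and the wild type was on all 3. Z00025973-1 stood at -3.20, -3.22 and -2.98 in the knockout and 0.17, 0.36 and 0.44 in the wild type (adjusted p = 4.74e-06). Its brightness in Cy3 was 76.0, 66.9 and 114 against 544, 536 and 722. Since the knockout has only an upper bound, the change is given as at least 8.02-fold lower. This bound sets the wild-type mean of the normalized Cy3 channel against the lowest signal called well above background on each knockout array, or the spot's own level where that was higher. Without a dye swap, a dye bias that varies between arrays was not tested.

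Z00026330-1, the probe with the repeat, behaved in the same way at P10. It was at -0.24, -0.07 and -0.05 in the knockout and 1.89, 2.06 and 2.76 in the wild type, with a brightness of 74.9, 70.9 and 93.7 against 270, 245 and 522. The bound was at least 3.95-fold lower, and was not itself tested. The ratio passed in the model of all arrays (limma, adjusted p = 4.07e-06). In that model the spread also drew on the later ages, where the SD within groups was 0.06 to 0.25. With the 6 P10 arrays alone the ratio passed with an adjusted p of 0.0189. Wild-type replicate 3 was the brightest array for this transcript, and the wild-type spread of 0.46 was the widest among the 6 lower probes. The reference channel differed by 0.09 for this probe and by 0.17 for Z00025973-1, so both losses lie in the skin channel.

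Another 3 probes were lower in the knockout and remained well above background on all 6 arrays. Z00054396-1, the brightest of them, was at 0.41, 0.34 and 0.47 in the knockout and 2.03, 1.91 and 2.00 in the wild type. Both groups had an SD of 0.06, and the change of -1.58 (SE 0.139, 95% confidence interval -1.87 to -1.28, adjusted p = 2.28e-05) amounted to 2.98-fold. Z00051811-1 was at -0.06, -0.05 and 0.01 in the knockout and 1.39, 1.15 and 1.42 in the wild type, a change of -1.35 (SE 0.154, 95% confidence interval -1.67 to -1.02, adjusted p = 0.000661) or 2.55-fold. In neither of these did the groups overlap, and the reference channel differed by -0.16 and -0.09.

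Z00046430-1 was at -0.58, -0.37 and -0.01 in the knockout and 1.33, 1.26 and 1.65 in the wild type, a change of -1.74 (SE 0.213, 95% confidence interval -2.19 to -1.29, adjusted p = 0.00147) or 3.34-fold. The size of this ratio does not come from the skin channel alone. The skin spot had a brightness of 111, 192 and 326 in the knockout and 304, 271 and 433 in the wild type, so that knockout replicate 3 lay inside the wild-type range before normalization. The reference spot read 163, 321 and 256 against 137, 157 and 159. After normalization the skin channel was lower by 0.97 in the knockout on the log2 scale, and the reference channel was higher there by 0.77. With the Cy3 channel alone, scaled to its 75th percentile, the change was -1.61 and the call was lost (adjusted p = 1).

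**Figure D1:**
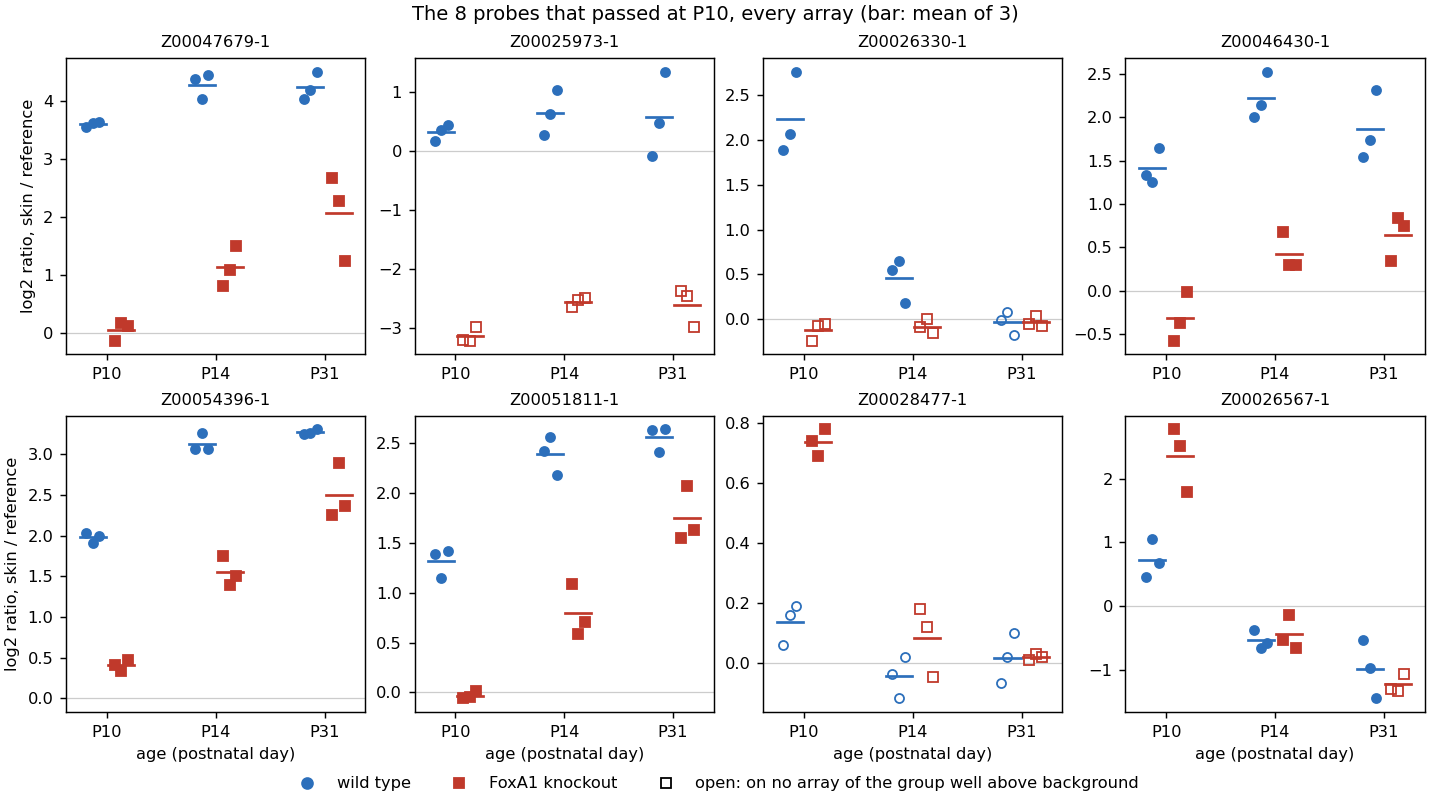
Log2 ratio of skin over reference (vertical axes, each with its own range) for the 8 probes that passed at P10, on all 18 arrays by age; points are arrays, bars the mean of 3, and open symbols mark a group with no array well above background. At P10 the genotypes lie apart for all 8, which is how the probes were chosen; at P31 wild type and knockout coincide for Z00026330-1 and Z00028477-1.

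Both higher probes rested on less. Z00026567-1 was at 2.78, 2.51 and 1.79 in the knockout and 0.45, 1.06 and 0.68 in the wild type. The change was 1.63 (SE 0.247, 95% confidence interval 1.11 to 2.15, adjusted p = 0.0181), or 3.09-fold, and lay in the skin channel, where the brightness was 1270, 1000 and 760 against 263, 344 and 356. Knockout replicate 3 was the lowest of the knockout arrays, although it was still above all 3 wild-type arrays. With the replicate number as a block the change was the same and the call was lost (adjusted p = 0.249). Leaving out 1 array removed it when that array was knockout replicate 1, knockout replicate 2, wild-type replicate 1 or wild-type replicate 3 (adjusted p = 0.0973 to 0.185), and over the other corrections, filters and designs the adjusted p ran from 6.85e-05 to 1.

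Z00028477-1 was at 0.74, 0.69 and 0.78 in the knockout, where it was well above background on all 3 arrays, and at 0.06, 0.16 and 0.19 in the wild type, where it was so on none. The groups were tight and apart, but dim. Its brightness was 138, 121 and 169 against 97.6, 92.5 and 96.2, on arrays with a median local background of 46 to 54. The bound was at least 1.32-fold higher, which is below the fold of 1.5, and was not itself tested. The ratio passed in the model of all arrays (limma, adjusted p = 0.0181) and not with the 6 P10 arrays alone (adjusted p = 0.196). The size of the change depended on the correction. It was 1.17 with normexp at offset 0, 2.60 with Cy3 alone and 2.72 with the scanner's own log ratio, against 0.60 in the main fit. With the replicate block the change was 0.60 as well, and the call was lost (adjusted p = 0.366). Without any one of the 6 P10 arrays it was 0.56 to 0.62 and did not pass (adjusted p = 0.0699 to 0.184), and the range over the other corrections, filters and designs was 3.75e-05 to 0.998.

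**Figure D2:**
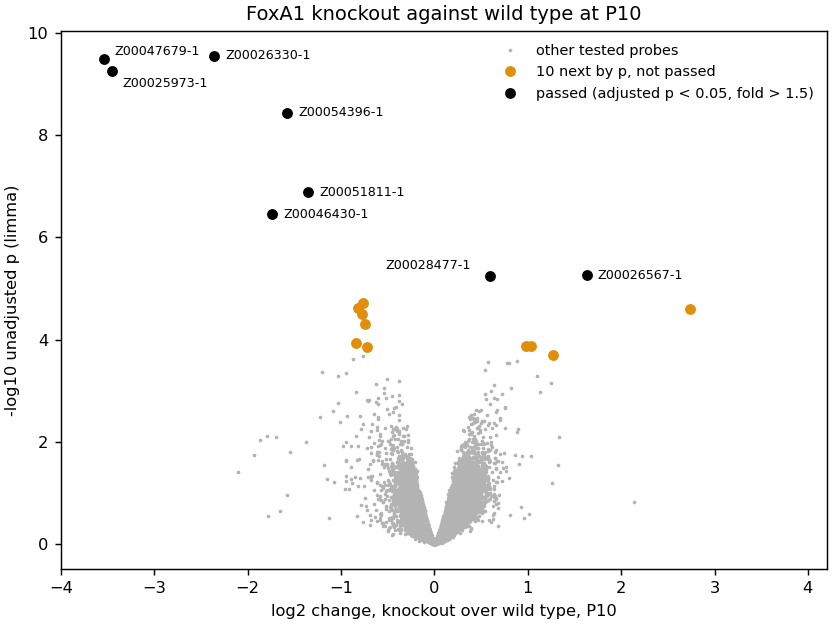
Log2 change of knockout over wild type at P10 (horizontal axis) against -log10 of the unadjusted p of limma (vertical axis) for the 24921 tested probes; black points passed, orange points are the next 10 by p. The 6 probes at the upper left stand clear of the cloud, whereas the 2 higher probes that passed lie close to the orange points.

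The next 10 probes by p did not pass and lay on both sides, 6 lower and 4 higher. The largest difference among all 18 probes named so far on the higher side was that of Z00076265-1 (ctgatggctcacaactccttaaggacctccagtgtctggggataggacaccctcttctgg). It was at 0.05, -0.08 and -0.80 in the knockout and -3.07, -2.92 and -3.04 in the wild type, a difference of 2.73 (SE 0.473, 95% confidence interval 1.73 to 3.74, adjusted p = 0.0582). Its brightness in the skin channel was 3170, 2740 and 2230 against 323, 308 and 415. The genotypes did not come near each other at P10, and with the 6 P10 arrays alone the adjusted p was 0.00682. In that fit it was the only higher probe that passed. In the model of all arrays the spread also drew on the later ages, where 1 wild-type array of each age, replicate 2 at P14 (-1.07) and replicate 3 at P31 (-1.21), stood far above the other wild-type arrays.

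Z00011235-1 (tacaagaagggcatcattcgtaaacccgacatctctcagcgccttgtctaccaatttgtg) was nearest to the limit. It was at 0.51, 0.46 and 0.45 in the knockout and 1.44, 1.31 and 0.96 in the wild type, a difference of -0.76 (SE 0.129, adjusted p = 0.0544). It passed at P14, with -1.16 (adjusted p = 0.000482). In the knockout, Z00044436-1 rose well above background on 3 arrays at P14, 3 at P31 and 0 at P10. The wild type had 3 such arrays at P10. The P10 ratios were 0.14, 0.25 and 0.45 in the knockout against 1.08, 0.94 and 1.14 in the wild type (adjusted p = 0.0668). The ratios differ by 1.71-fold, and the bound from the skin channel alone was at least 1.76-fold lower. The differences of Z00039137-1, Z00021727-1, Z00051364-1 and Z00024860-1 were between -0.84 and -0.73 with adjusted p from 0.0582 to 0.204, and none of these had overlapping groups. For Z00051364-1 and Z00024860-1 the reference channel was lower in the knockout too, by 0.40 and 0.61.

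In the other 3 higher probes of the 10, knockout replicate 3 was the lowest knockout array. Z00074490-1 was at 4.64, 4.56 and 3.47 in the knockout and 2.62, 3.49 and 2.74 in the wild type, a difference of 1.27 (adjusted p = 0.278). Z00075665-1 was at 2.94, 3.19 and 2.18 against 1.63, 2.14 and 1.45, and Z00029506-1 at 1.28, 0.89 and 0.30 against -0.54, -0.07 and 0.13. In each, knockout replicate 3 lay next to or within the wild-type range and replicates 1 and 2 lay well above it. All 3 passed without knockout replicate 3 (adjusted p = 0.00292 to 0.00592).

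Slide and genotype were only partly separate at P10. By the slide barcode in the names of the scanner output, knockout replicates 1 and 2 were on one slide. Knockout replicate 3 was on another together with all 3 wild-type arrays. With slide as a block the difference is that of knockout replicate 3 alone against the 3 wild-type arrays of its slide, and its p assumes that this lone array varies like those of the other groups. By this comparison Z00047679-1 changed by -3.48 (adjusted p = 0.000141), Z00054396-1 changed by -1.51 (adjusted p = 0.0319), and Z00025973-1 and Z00026330-1 were lower too (adjusted p = 0.00529 and 0.00779). The differences there were -1.43 for Z00046430-1 and -1.30 for Z00051811-1, and neither passed (adjusted p = 0.998 and 0.403). The higher probes did not pass either, with 1.06 for Z00026567-1 and 0.64 for Z00028477-1 (adjusted p = 0.998 for both). Z00076265-1 differed by 2.21 on the shared slide. By this fit 4 probes passed, 0 higher and 4 lower, and without knockout replicate 3 the count was 13, with 6 higher and 7 lower.

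**Figure D3:**
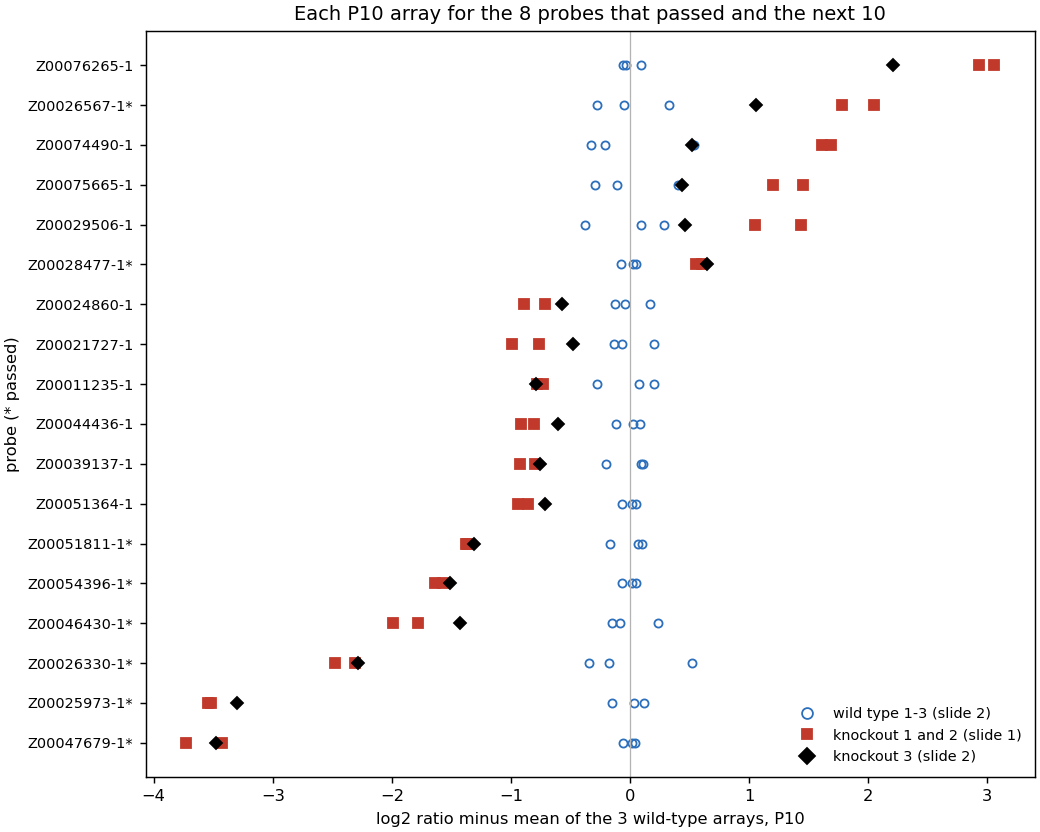
Log2 ratio of each P10 array minus the mean of the 3 wild-type arrays (horizontal axis) for the 8 probes that passed, marked with an asterisk, and the next 10; circles are wild type, squares knockout replicates 1 and 2 on their own slide, and diamonds knockout replicate 3, on the slide of the wild type. For Z00047679-1 the 3 knockout arrays lie together, while for Z00026567-1 replicate 3 differs from the wild type by 1.06 and the mean of replicates 1 and 2 by 1.91.

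The same placing of knockout replicate 3 was seen beyond the named probes. The 3 knockout arrays were all below the 3 wild-type arrays for 1969 of the tested probes (7.9%) and all above for 1684 (6.76%), and with a fold over 1.5 as well this left 73 lower (0.293%) and 57 higher (0.229%). These 130 probes were found with the values described, so the following is a description without a test. Among the 73 lower probes knockout replicate 3 was the nearest of the knockout arrays to the wild-type mean in 43 (58.9%), and among the 57 higher probes in 34 (59.6%), against 32.8% of all tested probes. The median difference from the wild-type mean was -0.86, -0.77 and -0.66 on knockout arrays 1 to 3 for the lower probes and 0.77, 0.71 and 0.58 for the higher. An effect of slide and a difference between animals cannot be told apart here.

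Across all tested probes the arrays did not part by genotype. The median absolute log2 difference between array pairs was 0.0966 for knockout replicates 1 and 2 and 0.102 for knockout replicate 3 and wild-type replicate 3. The pairs with wild-type replicate 1 were the most distant, at 0.169 to 0.210, whether the other array was knockout or wild type. All other pairs lay between 0.0966 and 0.153. The difference between the genotypes exceeded 1.5-fold for 223 probes (0.895%), 118 lower (0.473%) and 105 higher (0.421%), its median was 0.0060 on the log2 scale, and the median of the 95% confidence intervals reached 0.32 to either side. Before adjustment 834 probes had a p under 0.05 (3.35%), 347 lower (1.39%) and 487 higher (1.95%). No test that permutes 3 against 3 arrays can go below 0.1.

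**Figure D4:**
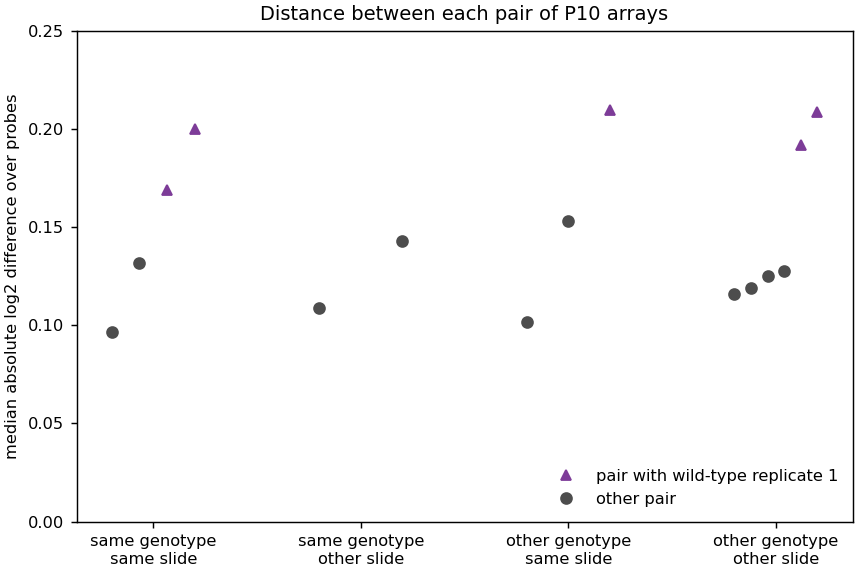
Median absolute log2 difference over the 24921 tested probes (vertical axis) for each of the 15 pairs of P10 arrays, by shared genotype and slide; triangles are pairs with wild-type replicate 1. Pairs of other genotype reach down to 0.102, within the range of pairs of the same genotype.

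Detection on all arrays of one genotype and none of the other was more frequent in the knockout, but few of those probes passed. Of the 24921 tested probes, 122 had 3 knockout arrays and no wild-type array well above background, and 8 had the reverse. Each of these passed the filter only through the genotype in which it was detected, so the counts are a description without a test. The share of all probes well above background was highest on knockout replicates 1 and 2 (62.7% and 59.7%), which were on their own slide. That of knockout replicate 3 (59.1%) lay below that of wild-type replicate 1 (59.6%). The part of these shares in the count was not tested. Of the 122 probes 1 passed, and of the 8 probes 2 did. A bound is a least fold, so a low bound does not show that the levels were alike. A bound over 1.5-fold was reached by 1 of the 122 and by 6 of the 8. The 1 was Z00023197-1, with a bound of 1.76 from the skin channel and a log2 ratio difference of -0.14 (adjusted p = 0.997), so channel and ratio point opposite ways. Among the 8, Z00074138-1, with a bound of 1.92-fold, came after Z00025973-1 and Z00026330-1, but did not pass (adjusted p = 0.784). The ratios of Z00060808-1 and Z00059624-1, with bounds of 1.58 and 1.56, differed by only -0.33 and -0.16 on the log2 scale (adjusted p = 0.997 for both). These 4 probes were named after their values were seen.

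The probes that were lower at P10 were then followed in the other animals, at P14 and P31. Slide and genotype were only partly separate there too. At P14 all knockout arrays shared a slide with wild-type replicate 1, and wild-type replicates 2 and 3 were on another. At P31 knockout replicates 1 and 2 were on a slide without wild-type arrays of that age. Knockout replicate 3 of P31 was on another slide with all wild-type arrays of P31. Z00025973-1 did not rise well above background on any of the 9 knockout arrays, and was at least 8.20-fold lower at P14 and 7.99-fold at P31. Z00047679-1 stood at 1.13 ± 0.35 in the knockout at P14 and 2.06 ± 0.74 at P31, against 4.28 ± 0.23 and 4.23 ± 0.24 in the wild type. The knockout value was thus closer to the wild type at these ages than at P10, where it was 0.05 ± 0.16. None of the knockout arrays reached a wild-type array. Arrays of P10 share no slide with those of P14 and P31, so age and slide cannot be told apart. Changes with age within a genotype were not tested.

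Z00054396-1 and Z00051811-1 were higher at P14 and P31 than at P10 in both genotypes, a comparison across slides that was not tested. For Z00054396-1 the wild type was at 1.98 ± 0.06, 3.13 ± 0.11 and 3.28 ± 0.03 at the 3 ages and the knockout at 0.40 ± 0.06, 1.55 ± 0.18 and 2.50 ± 0.34, so the knockout at P31 lay above the wild type of P10. For Z00051811-1 the wild type was at 1.32 ± 0.15, 2.39 ± 0.19 and 2.56 ± 0.13 and the knockout at -0.03 ± 0.04, 0.80 ± 0.26 and 1.75 ± 0.28. The differences between the genotypes were -1.57 and -1.59 at P14, where both passed (adjusted p = 3.1e-05 and 8.21e-05), and -0.77 and -0.81 at P31, where neither did (adjusted p = 0.114 and 0.154). Z00046430-1 was at 0.43 ± 0.22 in the knockout and 2.23 ± 0.27 in the wild type at P14, a difference of -1.80 that passed (adjusted p = 0.000923). At P31 it was at 0.64 ± 0.27 and 1.87 ± 0.41, a difference of -1.22 that did not (adjusted p = 0.0958). In whole skin, fewer cells of a type and less RNA per cell cannot be told apart for any of these probes.

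Whether an effect was particular to P10 was tested by setting the genotype difference at P10 against the mean of the differences at P14 and P31. A single probe passed (0.00401%), Z00026330-1, for which this contrast was -2.09 (SE 0.215, adjusted p = 0.000807), while 798 had an unadjusted p under 0.05 (3.2%). Its wild-type level went from 2.24 ± 0.46 at P10 to 0.46 ± 0.25 at P14 (1 of 3 arrays well above background), and to -0.03 ± 0.13 at P31 (0 of 3). The knockout stayed at -0.12 ± 0.10, -0.08 ± 0.07 and -0.03 ± 0.06, not well above background on any array. The change between P10 and the later arrays thus lay in the wild type, and age and slide cannot be told apart for it. A difference between the genotypes could not be measured at P31. The size of the contrast is set in part by the background, since most of these arrays were not well above it. It ran from -4.36 to -1.83 over the other corrections, filters and designs tried. It was -1.95 with slide as a block and -3.85 with Cy3 alone, and neither passed (adjusted p = 0.735 and 0.825).

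Neither higher transcript passed at the later ages. At P14, Z00026567-1 was at -0.44 ± 0.27 in the knockout and -0.54 ± 0.15 in the wild type, well above background on 3 knockout and 2 wild-type arrays, and at P31 at -1.23 ± 0.15 and -0.98 ± 0.46, where no knockout array and 1 wild-type array were well above background. Its contrast of P10 against the later ages was 1.70 (95% confidence interval 1.06 to 2.35, adjusted p = 0.426). Z00028477-1 was not well above background on any array of P14 or P31. Among the lower probes, Z00047679-1 had a contrast of -0.89 (95% confidence interval -1.58 to -0.20), Z00025973-1 of -0.26, Z00046430-1 of -0.23, Z00054396-1 of -0.40 and Z00051811-1 of -0.15, and none passed (adjusted p = 1 for each).

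The wider set of probes whose P10 groups did not overlap and differed by over 1.5-fold was also looked up in the animals of the later ages, which share no array or slide with P10. Within these ages slide and genotype were only partly separate as well, as given above. Of the 73 lower probes 53 had a negative difference at P14 (72.6%, against 49.5% of all tested probes) and 45 at P31 (61.6%, against 43.5%). Their median log2 difference was -0.77 at P10, -0.32 at P14 and -0.08 at P31. Of the 57 higher probes 46 had a positive difference at P14 (80.7%, against 50.5%) and 28 at P31 (49.1%, against 56.5%), with medians of 0.67, 0.44 and 0.00. At P14 the fold exceeded 1.5 in the same direction for 20 of the 73 and 19 of the 57, against 0.59% and 1.96% of all tested probes, and at P31 for 9 and 2, against 0.939% and 0.658%. The higher set thus kept its sign at P14 and not at P31. Of all tested probes 7 passed at P14 (0.0281%) and 2 at P31 (0.00803%). Those of P14 were 6 of the 73 and 1 of the 57, and those of P31 were 2 of the 73. Several of these probes can report one transcript or one cell type, so they are not independent.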

How the data were processed

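Total RNA of footpad skin (Cy3) was hybridized with a common reference (Cy5) to 18 two-colour Agilent arrays on 5 slides, without a dye swap. Slide membership was taken from the barcode in the names of the scanner output, not from the sample labels. Per the file headers, the deposited spot brightness, background and processed signals are intensity values from Agilent Feature Extraction 9.5.1.1. The deposited log ratio of that software is in log10 units, as is the authors' value table, whose differences between arrays equal that ratio (largest log2 difference 0.000652 over 13577 probes). The deposited files also hold other values, marks of 0 or 1 per spot.

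Mean brightness was corrected with normexp (offset 50) and loess, controls and outlier spots at weight 0, in limma 3.58.1 under R 4.3.3. Ratios were turned to skin over reference and averaged to 42006 probes. Of 24939 probes past the filter, 18 with an outlier spot on some array were left out. lmFit and eBayes used 6 group means over 18 arrays (12 residual degrees of freedom). All p-values are two-sided. Arrays are treated as separate animals. The number of arrays limits precision. The script was tested on simulated data.

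Named probes are all that passed, the next 10 by p, and the 5 highest and 5 lowest wild-type ratios. The probes, tests and lists were chosen with earlier results of these data known. Gene lists and cell type markers were planned and not used, since no probe has a gene name. The replicate numbers were used as pairs only in the fit with a replicate block, and the main fit used no pairs. At P10 deviations from the group means correlated for each same-numbered pair (0.227, 0.373 and 0.190). The labels give the number alone. At P14 (-0.439, 0.408 and -0.320) and P31 (0.382, -0.309 and -0.465) the numbers did not pair the arrays. Other matchings gave correlations of 0.619, 0.472 and 0.408 at P14 and of 0.382, 0.396 and 0.649 at P31. The smaller correlations at P10 therefore do not show that its numbers are pairs.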

Additional observations from a re-analysis of the deposited data

Results flagged for a closer look

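Z00026330-1 had a genotype difference at P10 that differed from the mean of the later ages by -2.09 on the log2 scale, by a test of the difference itself (limma, adjusted p = 0.000807). This size is no exact change, since it ran from -4.36 to -1.83 over the other settings and rests on arrays at background. The knockout was not well above background at any age, and the wild type was so on 3 arrays at P10, 1 at P14 and 0 at P31. Groups of 3 arrays are too small for the search for single deviating arrays, so none was made.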

How the results depend on the processing

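Of the 8 probes, Z00047679-1, Z00025973-1, Z00026330-1 and Z00054396-1 passed with the same sign in each of the 15 to 17 planned settings that kept them and without any one P10 array. These settings are not as many independent checks. Quantile scaling between arrays (Aquantile) left the ratios of the main fit unchanged, and dropping the fold limit could not remove a call. The deposited table largely repeats the scanner's own log ratio. None of the 8 probes or the next 10 changed sign. Z00051811-1 was lost with slide as a block, and Z00046430-1 there and with Cy3 alone. Z00026567-1 was lost in 8 of 17 settings and Z00028477-1 in 5 of 15, among these no background correction and array quality weights, where its fold was under 1.5; the other causes were not tested.

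The count of 8 became 5 when all 6 arrays had to be well above background, which leaves fewer probes, 4 with slide as a block, 4 without both knockout arrays of the other slide (added after seeing the data), and 278 with array quality weights (131 higher, 147 lower). Leaving out 1 P10 array gave 6 to 13. With the replicate block 6 passed, all among the 8, and the contrast with the later ages kept its 1 probe, although the numbers were not shown to pair the arrays at any age. The replicate block changed no other call. That count was 2 with the scanner's own log ratio and with the deposited table, 0 with Cy3 alone, with the filters on all 6 arrays and on a mean log10 signal over 2.0, with slide as a block and without both knockout arrays, 6 with array weights, and 1 to 4 without 1 array. Unadjusted p values under 0.05 numbered 469 with Cy3 alone, 703 and 722 with the filters, and 293 and 308 in the slide fits. Both filters removed Z00026330-1, so the count of 0 there is no failed test of this probe. The filter on all 6 arrays also removed Z00025973-1 and Z00028477-1, and the remaining 5 of the 8 still passed. Dim spots limit every probe given as a bound.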

Other observations

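Among the tested probes, those at the ends of the scale differed most between wild-type P10 skin and the reference. The filter required signal in skin, so transcripts of the reference that are absent from skin are missing from the low end. The highest wild-type ratio was that of Z00028697-1, at 8.89, 9.15 and 8.95 in the wild type and 8.94 ± 0.46 in the knockout, followed by Z00040994-1 (8.10 ± 0.18 and 8.03 ± 0.28) and Z00048522-1 (7.92 ± 0.12 and 8.09 ± 0.26). Z00030743-1 and Z00061896-1 had wild-type ratios of 7.40 and 7.28. The lowest was Z00074503-1, at -9.83 ± 0.13 and -9.61 ± 0.10, and then Z00009495-1, at -8.86 ± 0.21 and -8.63 ± 0.05. Z00034687-1, Z00013361-1 and Z00005148-1 lay between -6.82 and -6.68 in the wild type. The skin spot of Z00034687-1 was dim, with a Cy3 brightness of 124, 128 and 145 in the wild type. The differences between the genotypes in these 10 probes ran from -0.09 to 0.23, with confidence intervals that all include 0, and the widest of these reached from -0.97 to 0.93.

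Array quality weights, which gave the largest count, weighted knockout replicate 1 of P10 at 7.27, the highest of all 18 arrays, and knockout replicate 3 of P31 at 0.311, the lowest.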
